A study of Ovis aries with 15 samples.

Results

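The 52 genes described here are the Wnt ligands, their Frizzled and LRP receptors, the R-spondins with their LGR receptors and the ubiquitin ligases ZNRF3 and RNF43, the secreted Wnt inhibitors, and 6 intracellular proteins of the same pathway (AXIN1, AXIN2, NKD1, CTNNB1, TCF7 and TCF7L2). A rule on gene symbols picked them out of the 24691 features of the sheep table, and the rule was written with earlier results of these data known, the fall of RSPO1 among them. By role they comprised 17 ligands, 11 receptors and co-receptors, 9 genes of the R-spondin arm, 9 secreted inhibitors and the 6 intracellular genes.

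Wnt ligands bind a Frizzled receptor together with LRP5 or LRP6, which spares beta-catenin (CTNNB1) from destruction by a complex built on AXIN proteins and lets it act in the nucleus with TCF factors. ZNRF3 and RNF43 remove Frizzled receptors from the cell surface, and R-spondins, held by LGR receptors, withdraw ZNRF3 and RNF43 and so raise the response to Wnt. SFRP proteins, WIF1 and DKK1 are secreted and block ligands or LRP co-receptors, while AXIN2 and NKD1 are inhibitors inside the cell whose own transcription is raised by Wnt signalling. In the mouse mammary gland RSPO1 is known as a hormone-dependent factor of luminal cells that acts with Wnt ligands on the epithelium during pregnancy.

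RNA came from needle biopsies of mammary parenchyma of 2-year-old Romney ewes in their first pregnancy, and was sequenced as 9 pools from late pregnancy (day 135 of gestation) and 6 pools from lactation (day 15 post partum). Each pool held RNA of several ewes, 3 in late pregnancy and 2 in lactation by the labels, and the methods text differs on the number behind a lactation pool. The ewes differed in what their own dams had eaten in early gestation, ad libitum (HM), maintenance (MM) or sub-maintenance (LM), with maintenance feed from then on in all 3 groups, and each group supplied 3 late pregnancy and 2 lactation pools. All ewes were themselves fed alike at pasture, and the question the states address is how the gland that is still being built differs from the gland that secretes milk. Ewes were biopsied in late pregnancy and again in lactation, so pools of the 2 states can hold the same animals, but no label ties a pool to its ewes and the tests treat the pools as independent. Pools are the replicates, so p-values here measure the spread between pools, and in pieces of whole tissue fewer cells of a type and less RNA per cell cannot be told apart.

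Reads on genes numbered 7597938 to 19823166 per late pregnancy library and 10352962 to 25679416 per lactation library, and milk protein genes took 13.7 to 23.4% and 71.3 to 75.8%. Levels are therefore given as CPM, reads scaled by TMM to a library of 1000000 (a scaling on the bulk of genes), on which 3 reads equal 0.101 to 0.274 CPM in late pregnancy and 0.261 to 0.659 CPM in lactation. The label of mammary gland was met by the markers, with luminal genes summing to 1536 to 1894 CPM in late pregnancy and 2535 to 2749 CPM in lactation. Among tested markers, 5 of 8 luminal and 4 of 8 myoepithelial genes were higher in lactation (1 and 2 lower), 2 of 6 adipocyte genes were higher, and 6 of 7 fibroblast, 4 of 6 endothelial, 6 of 9 immune and 10 of 10 dividing-cell genes were lower, with 2 immune genes higher. These counts stand beside 35.2% of all tested features lower and 33.1% higher in lactation. The adipocyte genes that were higher were CIDEA and ADIPOR2, while ADIPOQ, FABP4, CIDEC and PLIN4 were not called (log2 -0.35, 0.05, -0.61 and -0.36).

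Between the states the Wnt genes moved in opposite directions within each class of ligand and receptor. RSPO1 went from 59 to 233 reads in every late pregnancy library to no read in any lactation library, the intracellular inhibitors NKD1 and AXIN2 and the secreted inhibitors DKK1, WIF1 and SFRP2 fell, and the ligand WNT5A, the receptors FZD5 and FZD4 and the ligase ZNRF3 rose. Of the 52 members 29 had enough reads to be tested, and by the quasi-likelihood test of edgeR at an adjusted p under 0.05 there were 16 lower in lactation, 7 higher and 6 not called. Over all 13345 tested features 35.2% were called lower and 33.1% higher. Without any overlap between the 9 and the 6 libraries, 8 of the 29 were lower and 5 higher, where 20.0% and 20.2% of all tested features had no overlap in those directions. A gene passes the filter when it is read well in either state, so these counts describe the 29 and not the whole set of 52. The filter works on reads before scaling. Scaled library sizes were 10942394 to 29599906 in late pregnancy and 4549945 to 11491285 in lactation. At equal CPM a gene has fewer reads in lactation, so genes higher in late pregnancy pass more easily, among members as among all features. Without a filter 16 members were again lower and 7 higher, though LGR4 and LRP6 lost their calls.

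**Figure D1:**
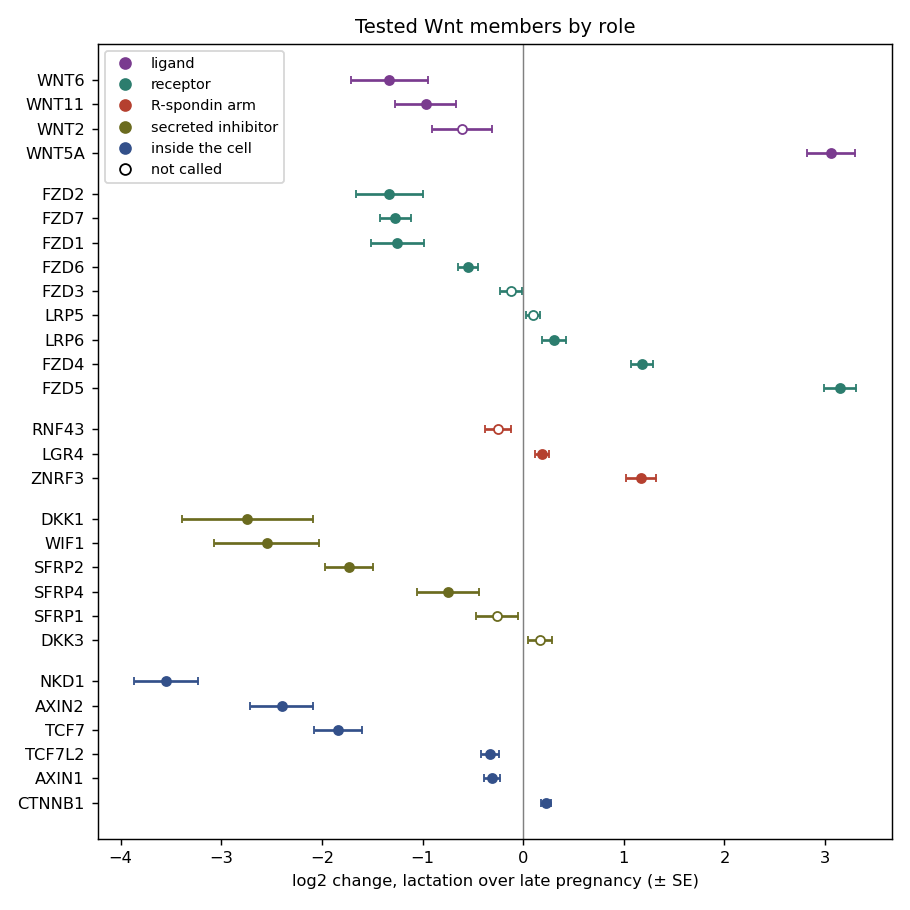
Points are the log2 change of lactation over late pregnancy for 28 of the 29 tested members (x axis, bars are the standard error), ordered within role on the y axis, with open circles for members not called by edgeR. RSPO1 is left off because it had no read in lactation, WNT5A and FZD5 lie farthest to the right, NKD1 farthest to the left, and the positive values of FZD4, LRP5, LRP6, LGR4, ZNRF3, DKK3 and CTNNB1 become negative when libraries are scaled by their size alone.

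RSPO1, on chromosome 1 from 12198282 to 12212782 in the coordinates of the deposited table, was measured at 5.39 CPM in its lowest late pregnancy library, 7.30 at the median and 8.42 in the highest. In each of the 6 lactation libraries it had 0 reads. The states did not overlap, and the late pregnancy mean of 7.30 ± 0.942 CPM (SD, n = 9) was at least 11.1-fold higher than the level that 3 reads would give in the shallowest lactation library (adjusted p = 1.3e-11, edgeR). Even the lowest late pregnancy library was at least 8.18-fold above that floor. Its intron reads, a separate set of reads of the same libraries, ran from 38 to 196 in late pregnancy and from 0 to 1 in lactation (adjusted p = 9.8e-12). The fall of RSPO1 was known when this set of genes was put together, so it is a description and not a fresh test.

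The loss was not shared by LGR4, ZNRF3 or RNF43. LGR4, the only R-spondin receptor with enough reads to be tested, was measured at 34.4, 37.98 and 42.9 CPM (lowest, median and highest library) in late pregnancy and at 34.6, 44.2 and 52.0 CPM in lactation. Its states overlapped, and a log2 change of 0.19 ± 0.07 (SE) passed the test narrowly (adjusted p = 0.0308, edgeR), lost the call when any of 6 of the 15 libraries was left out (late pregnancy replicates 2, 4 and 8, lactation replicates 3, 4 and 6), and was -1.72 with scaling by library size alone. Per kilobase of exon, RSPO1 stood at 0.955 to 1.46 times the level of LGR4 in the late pregnancy libraries.

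ZNRF3, the ligase that clears Frizzled receptors, moved the other way from RSPO1. It was read at 1.33, 2.30 and 2.78 CPM in late pregnancy and at 3.997, 4.82 and 6.51 CPM in lactation, without overlap. The rise was 1.17 ± 0.15 on the log2 scale, or 2.25-fold (adjusted p = 9.0e-07, edgeR), although with library size alone the same gene was at -0.74 while the median of all tested features was at -1.94. RNF43, its close relative, was not called (log2 change -0.25, 95% interval -0.50 to 0.01), with 4.02 to 8.07 CPM in late pregnancy and 4.57 to 5.06 CPM in lactation. On intron reads RNF43 was called lower (log2 -0.45 ± 0.14, adjusted p = 0.00735, edgeR). Upper quartile scaling (-0.40), whole-gene reads (-0.33) and a filter of at least 10 reads in every library (-0.33) also called it lower. Relative to LGR4 on the scale per kilobase, ZNRF3 stood at a median of 0.157 in late pregnancy and 0.290 in lactation, and RNF43 at 0.323 and 0.255.

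The remaining R-spondin genes were hardly read. RSPO2, RSPO3, RSPO4 and LGR6 had at most 1, 3, 1 and 4 exon reads in any library, and LGR5, the stem cell marker of several epithelia, had 0 to 10 before birth and 0 to 2 after it. Intron reads, not scaled for depth and not tested, ran from 7 to 29 and 0 to 14 for LGR5. For LGR6 they ran from 5 to 25 and 0 to 3. RSPO1 was thus the R-spondin that could be measured in late pregnancy, and in lactation none of the 4 R-spondins exceeded 1 exon read in a library.

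**Figure D2:**
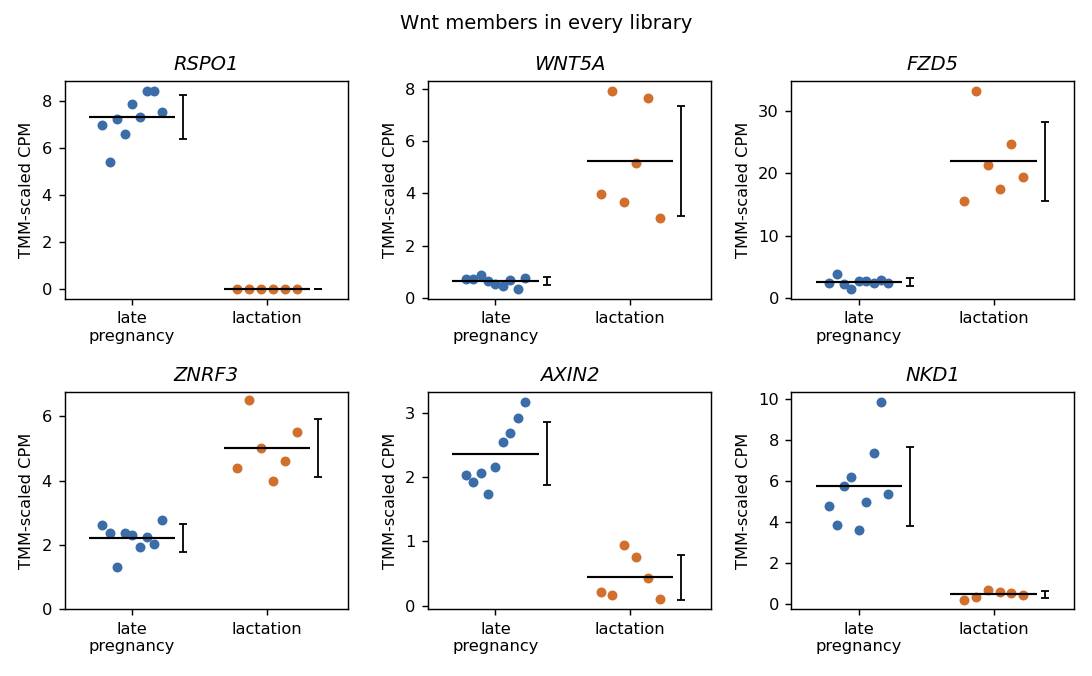
Each point is 1 library (late pregnancy n = 9, lactation n = 6, spread sideways for visibility), the y axis is the TMM-scaled CPM, the line is the mean and the bar beside it the SD. RSPO1, AXIN2 and NKD1 were lower and WNT5A, FZD5 and ZNRF3 higher in every lactation library than in any of late pregnancy, and with scaling by library size alone ZNRF3 turned to a log2 change of -0.74.

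Among the 17 ligands only 4 had enough reads to be tested, WNT2, WNT5A, WNT6 and WNT11, and their order changed. WNT5A, a ligand best known for signalling without beta-catenin and for restraining growth of the mammary ducts in mice, was at 0.347, 0.669 and 0.887 CPM in late pregnancy, from 7 to 18 reads. In lactation it was at 3.04, 4.55 and 7.91 CPM, from 18 to 88 reads. No lactation library fell to the late pregnancy range, and the change was 8.32-fold (log2 3.06 ± 0.24 SE, adjusted p = 5.6e-10, edgeR). Its intron reads gave a log2 change of 2.75 ± 0.24 (adjusted p = 6.4e-10).

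WNT6, a ligand found in embryonic and mammary epithelia, was read at 0.502, 0.759 and 1.10 CPM in late pregnancy and 0, 0.279 and 0.571 CPM in lactation, which is 8 to 28 reads against 0 to 5. The ranges overlapped slightly, and the log2 change was -1.33 ± 0.38 (adjusted p = 0.00462, edgeR), not called in the fit with pools matched by feed group and number (adjusted p = 0.0526 over 12 libraries). WNT11, which like WNT5A is known mainly for signalling without beta-catenin, was at 0.794, 1.18 and 1.54 CPM in late pregnancy and at 0.176, 0.582 and 0.902 CPM in lactation, with overlapping ranges and a log2 change of -0.97 ± 0.30 (adjusted p = 0.00778, edgeR). WNT2, a ligand of stromal cells in many organs, was not called (-0.61, 95% interval -1.20 to -0.02, adjusted p = 0.0809, edgeR), with 16 to 42 reads per late pregnancy library and 1 to 12 per lactation library.

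Summed per kilobase over the 17 ligands, the level was 2.76 to 3.62 CPM per kilobase for late pregnancy and 3.26 to 7.88 for lactation, the smallest sum of any role. WNT6 held 20.7 to 43.0% of that sum in late pregnancy and was above WNT11 in 9 of 9 libraries and above WNT2 in 8 of 9. WNT5A held 6.65 to 16.3% there and 45.8 to 77.6% in lactation, where it was above WNT2 in 6 of 6 libraries. Among the 17 listed ligands the highest level per kilobase was thus that of WNT6 in late pregnancy and of WNT5A in lactation, as a description of levels. In CPM, which does not correct for the short exons of WNT6, its late pregnancy mean of 0.773 lay below those of WNT2 (1.29) and WNT11 (1.16).

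The other 13 ligands gave too few reads to be tested. WNT3, WNT3A, WNT8A and WNT9B had no read in any library, WNT1, WNT7A, WNT10B and WNT16 had at most 2, and WNT9A and WNT10A had at most 5. WNT2B was read 2 to 19 times in late pregnancy and 0 to 6 times in lactation, WNT5B 2 to 8 and 0 to 7 times, and WNT8B 0 to 6 times in either state. As means in CPM, WNT8B was at 0.0573 in late pregnancy and 0.303 in lactation, WNT5B at 0.197 and 0.232, and WNT2B at 0.494 and 0.407, all with overlap. Several of these genes lie side by side in the table's coordinates, as WNT ligands do in other vertebrates. WNT6 and WNT10A were 7833 bases apart on chromosome 2, WNT1 and WNT10B 8087 on chromosome 3, WNT3A and WNT9A 24146 on chromosome 5 and WNT9B and WNT3 27796 on chromosome 11. In the pair of WNT6 and WNT10A, 8 to 28 reads of the former stood beside 0 to 5 of the latter in late pregnancy.

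Of the 7 tested Frizzled receptors 2 were higher, 4 lower and 1 not called, beside 33.1% and 35.2% of all tested features. FZD5, at chromosome 2 from 208759746 to 208761259, was at 1.45, 2.42 and 3.75 CPM in late pregnancy and at 15.6, 20.3 and 33.2 CPM in lactation. All 6 lactation libraries were above all 9 of late pregnancy, by 8.85-fold on the fitted scale (log2 3.15 ± 0.16 SE, adjusted p = 1.4e-12, edgeR). FZD4, the Frizzled that also serves as the Norrin receptor of blood vessels, was likewise higher without overlap, from 4.88 to 8.41 CPM in late pregnancy to 13.5 to 18.1 CPM in lactation (log2 1.18 ± 0.11, adjusted p = 1.0e-08, edgeR, but -0.73 with library size alone). Of the tested endothelial markers 4 of 6 were lower and none higher in lactation, with sums of 187.5 to 247.6 CPM and 127.3 to 172.1 CPM. ENG and ESAM were not called (log2 0.17 and -0.10). The part of endothelial cells in the level of FZD4 was not tested.

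FZD7, FZD1 and FZD2 went down. FZD7, a receptor linked with mammary basal cells, was at 6.21, 7.38 and 10.0 CPM in late pregnancy and at 2.44, 3.01 and 4.38 CPM in lactation, without overlap (log2 -1.27 ± 0.15, adjusted p = 2.1e-07, edgeR). FZD1 was lower without overlap too, at 1.49, 1.92 and 3.49 CPM against 0.678, 0.947 and 1.14 CPM (log2 -1.25 ± 0.26, adjusted p = 2.5e-04, edgeR). FZD2 was at 1.11, 1.59 and 2.33 CPM against 0.136, 0.505 and 1.22 CPM, with an overlap in which 1 to 14 reads stood behind the lactation values (log2 -1.33 ± 0.33, adjusted p = 0.0016, edgeR). FZD1, FZD2 and FZD7 resemble each other in sequence, and 96.6, 96.7 and 99.2% of their exon reads were placed uniquely.

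FZD6, which acts in planar polarity, was modestly lower with overlap (13.2 to 20.5 CPM against 10.6 to 14.4 CPM, log2 -0.55 ± 0.10, adjusted p = 9.5e-05, edgeR). FZD3, its partner in planar polarity, was not called (log2 -0.12, 95% interval -0.34 to 0.10), at 6.40 to 8.94 CPM and 5.28 to 8.004 CPM. FZD9 and FZD10 were not tested, with at most 4 and 19 reads in a library.

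As levels per kilobase, the order of the Frizzled receptors in late pregnancy was FZD6, FZD4, FZD3, FZD7, FZD5, FZD1, FZD2, FZD10 and FZD9. FZD6 exceeded FZD4 in 7 of 9 libraries and FZD3 exceeded FZD7 in 5 of 9, so neither pair of neighbours was set apart beyond the spread, while FZD4 was above FZD3 and FZD7 above FZD5 in 9 of 9. In lactation FZD5 came to the front with FZD4 next, FZD5 being the higher in 5 of 6 libraries, and FZD4 was above FZD6, FZD6 above FZD3 and FZD3 above FZD7 in 6 of 6. As a share of the sum of the 9 receptors, FZD5 moved from 6.27 to 12.4% in late pregnancy to 35.6 to 54.1% in lactation, and FZD6 from 23.96 to 29.0% to 9.03 to 12.7%. The ratio of FZD5 to FZD6 was 0.257 to 0.478 in the former and 3.15 to 5.99 in the latter. Such ratios are taken within a library, so the scaling between libraries does not enter them.

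**Figure D3:**
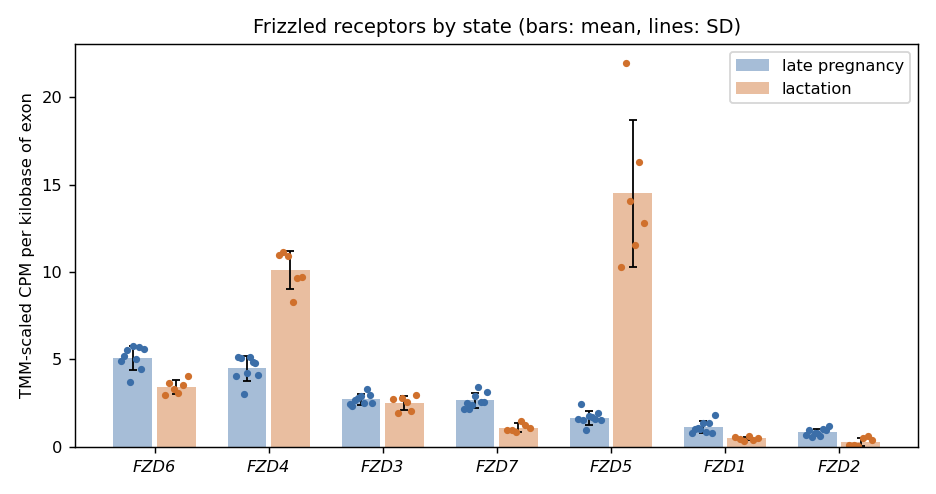
Bars are the mean and lines the SD of TMM-scaled CPM per kilobase of exon (y axis) for the 7 tested Frizzled genes, with 1 point per library. FZD5 rises from a mean of 1.67 in late pregnancy (n = 9) to 14.5 in lactation (n = 6), FZD4 from 4.496 to 10.1 (a direction that turns with scaling by library size alone), and FZD6 is the highest bar of late pregnancy at 5.09.

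The co-receptors stayed close to their late pregnancy level. LRP5 was at 47.4, 52.4 and 63.4 CPM in late pregnancy and at 53.0, 57.7 and 62.0 CPM in lactation, and was not called (log2 0.10, 95% interval -0.04 to 0.24, adjusted p = 0.213, edgeR). LRP6 was at 10.1 to 15.7 CPM and 11.6 to 20.6 CPM, with overlap, and its log2 change of 0.31 ± 0.12 passed the test (adjusted p = 0.0249, edgeR) but not without lactation replicate 2 (adjusted p = 0.0962), and was -1.60 with library size alone. LRP5 was above LRP6 per kilobase in 9 of 9 and 6 of 6 libraries. Summed over the 11 receptors and co-receptors, the level in CPM per kilobase was 27.1 to 35.9 for late pregnancy and 43.5 to 55.9 in lactation.

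Of the 9 secreted inhibitors 6 were tested, and 4 fell, none rose and 2 were not called, where 35.2% of all tested features were lower and 33.1% higher. SFRP2, a Frizzled-like protein of stromal cells that captures Wnt ligands, was at 5.12, 9.73 and 15.4 CPM in late pregnancy and at 2.29, 3.03 and 3.31 CPM in lactation. The ranges were apart, with a 3.31-fold difference (log2 -1.73 ± 0.24, adjusted p = 2.9e-06, edgeR). WIF1, which binds Wnt ligands directly, was at 1.63, 2.68 and 9.55 CPM in late pregnancy and at 0.348, 0.652 and 1.10 CPM in lactation, again without overlap (log2 -2.55 ± 0.52, adjusted p = 2.3e-04, edgeR). The top value belonged to late pregnancy replicate 4, far above the next library, and without it the log2 change was -2.17 (adjusted p = 1.7e-05).

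DKK1, the inhibitor that takes LRP5 and LRP6 out of action, was at 0.380, 1.46 and 3.62 CPM in late pregnancy, which is 10 to 58 reads. In lactation it had 0 to 4 reads per library, or up to 0.543 CPM, and the 2 ranges touched through the lowest late pregnancy library (log2 -2.74 ± 0.65, adjusted p = 9.7e-04, edgeR). SFRP4, a relative of SFRP2, was at 3.51, 6.62 and 10.2 CPM and at 1.36, 3.78 and 6.61 CPM with wide overlap. Its log2 change of -0.75 ± 0.31 passed the test (adjusted p = 0.0415, edgeR), and lost the call in 9 of the 15 fits that left out a library (late pregnancy replicates 3, 5, 7, 8 and 9, lactation replicates 1, 2, 3 and 6), where adjusted p ran up to 0.121.

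SFRP1 and DKK3 were not called, the former at a log2 change of -0.26 (95% interval -0.66 to 0.14) and the latter at 0.17 (-0.06 to 0.40, and -1.75 with library size alone). DKK3, the member of the DKK family that does not act on LRP6 in the manner of DKK1, was at 6.92 to 9.98 CPM and 7.25 to 11.9 CPM. DKK2, DKK4 and SFRP5 were not tested, with at most 8, 1 and 19 reads in any library. The mean of DKK2 was 0.102 CPM in late pregnancy and 0.601 CPM in lactation, with overlap, from 0 to 5 and 0 to 8 reads. That of SFRP5 went the other way, at 0.394 and 0.149 CPM, also with overlap. Summed per kilobase over the 9 inhibitors, the level was 19.6 to 39.1 CPM per kilobase for late pregnancy and 11.1 to 19.5 for lactation, and SFRP2 held 29.6 to 48.3% and 19.2 to 28.9% of that sum.

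Fibroblast markers were mostly lower in lactation. Of 7 tested, 6 were lower and none higher, beside 35.2% and 33.1% of all tested features. Their sum was 428.9 to 748.2 CPM in late pregnancy and 293.5 to 462.2 CPM in lactation. None of the defining genes was at 0 (COL1A1 had a mean of 282.8 and 107.8 CPM, DCN 92.2 and 69.4 CPM). The median log2 change of the 7 was -0.45, COL1A1 being at -1.39. Their part in the fall of SFRP2, SFRP4, WIF1 and DKK1 was not tested.

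Inside the cell, the largest falls of the 6 genes were those of NKD1 and AXIN2. NKD1, which binds Dishevelled, was at 3.62, 5.37 and 9.85 CPM in late pregnancy (42 to 199 reads) and at 0.220, 0.487 and 0.678 CPM in lactation (1 to 6 reads). The states were apart by 11.7-fold on the fitted scale (log2 -3.55 ± 0.32, adjusted p = 7.4e-09, edgeR). AXIN2, the scaffold whose transcription is widely used as a readout of beta-catenin activity, was at 1.74, 2.16 and 3.17 CPM and at 0.113, 0.327 and 0.949 CPM, from 21 to 67 and 1 to 7 reads. It was lower without overlap by 5.28-fold (log2 -2.40 ± 0.31, adjusted p = 1.1e-06, edgeR).

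AXIN1, the constitutive relative of AXIN2, changed far less, at 12.2 to 16.0 CPM and 10.3 to 14.1 CPM with overlap (log2 -0.31 ± 0.08, adjusted p = 0.00169, edgeR). Per kilobase, AXIN2 stood at 0.147 to 0.253 of the level of AXIN1 in the late pregnancy libraries and at 0.0114 to 0.0986 in those of lactation. The ratio is free of the scaling between libraries and its ranges did not overlap. In lactation it rested on only 1 to 7 AXIN2 reads per library.

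Of the DNA-binding partners of beta-catenin, TCF7 fell and TCF7L2 changed little. TCF7, which is also a T-cell factor, was at 2.32, 2.84 and 4.20 CPM in late pregnancy and at 0.190, 0.842 and 1.23 CPM in lactation, without overlap (log2 -1.84 ± 0.24, adjusted p = 1.1e-06, edgeR). Immune markers summed to 94.2 to 124.0 CPM and 63.3 to 83.9 CPM. Of 9 tested, 6 were lower and 2 higher, beside 35.2% and 33.1% of all tested features. The T-cell markers tested, CD3E, CD2 and CD8A, had log2 changes of -1.63, -1.62 and -1.32. The 2 immune genes that were higher were CD14 (2.13) and ITGAM (1.01). The part of immune cells in the fall of TCF7 was not tested. TCF7L2 was at 16.8, 18.5 and 23.5 CPM and at 13.5, 14.6 and 20.7 CPM, with overlap (log2 -0.33 ± 0.09, adjusted p = 0.00454, edgeR).

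CTNNB1 itself, the most abundant member, was at 191.6, 206.3 and 223.4 CPM in late pregnancy and at 224.1, 246.0 and 257.4 CPM in lactation. The ranges did not overlap and the log2 change was 0.23 ± 0.05 (adjusted p = 3.4e-04, edgeR), yet this small rise was -1.68 with library size alone and -0.05 on the authors' quantile-normalized RPKM. The protein is also part of cell junctions, and its amount in signalling is not set by transcript level alone.

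All 10 markers of dividing cells were lower in lactation, beside 35.2% of all tested features. Their median log2 change was -3.27, and they summed to 120.5 to 259.8 CPM and 15.4 to 37.6 CPM. They moved in the same direction as NKD1, AXIN2 and TCF7, and their part in those falls was not tested.

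Intron reads gave a second view from reads that the exon counts leave out. Over 10344 features tested on them, 29.0% were lower and 29.0% higher in lactation. Of the 52 members 21 could be tested on introns, 6 lower and 8 higher, and 18 were tested on both kinds of read. On both kinds 8 of the 18 passed in the same direction, a share near the 44.5% of the 9801 features tested on both that did so, NKD1 with an intron log2 change of -4.88 ± 0.32, AXIN2 with -1.95 ± 0.35, WNT6 with -1.79 ± 0.46, ZNRF3 with 1.95 ± 0.14 and FZD4 with 0.98 ± 0.23 being among them, next to WNT5A and RSPO1 above.

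AXIN1 was the member that passed in opposite directions, at -0.31 on exons and 0.78 ± 0.13 on introns (adjusted p = 2.9e-05, edgeR), as did 2.97% of the 9801 features tested on both. DKK3 had 5 to 14 intron reads per late pregnancy library and 6 to 38 per lactation library, a log2 change of 2.57 ± 0.28 (adjusted p = 2.4e-08, edgeR) beside the exon change of 0.17 that was not called. WIF1 went the other way about, with exons at -2.55 and introns at 0.16 ± 0.30 (adjusted p = 0.667, edgeR), and with reads on the whole gene its change was -1.56.

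WNT8B, WNT9A and WNT2B, too low on exons for a test, were called higher on introns at log2 changes of 2.15, 1.16 and 0.32. WNT8B had 6 to 17 intron reads in the late pregnancy libraries and 10 to 27 in those of lactation beside at most 6 exon reads. The library kit does not keep the strand, so reads of a transcript that overlaps an intron on either strand cannot be told apart from those of the gene.

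**Figure D4:**
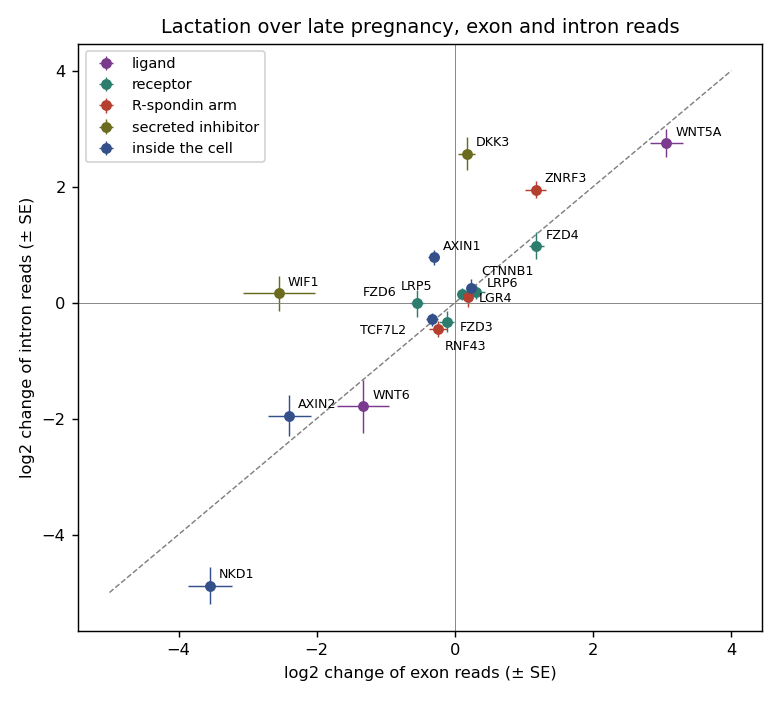
Each point is 1 of 17 members tested on both exon reads (x axis) and intron reads (y axis), as log2 change of lactation over late pregnancy with standard errors, and the dashed line marks equal change. AXIN2, WNT6, FZD4 and WNT5A lie near the line, NKD1 lies below it, DKK3, AXIN1, WIF1 and ZNRF3 lie above it, and RSPO1 is left off because no lactation library held an exon read.

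The feed of the dams could be compared within late pregnancy over 3 pools per group. By the lane number in the column names, all LM pools were in lane 8, while HM and MM pools lay in lanes 7 and 8. Differences of LM from the other groups cannot be fully told apart from lane. None of the 32 members tested there was called by edgeR, nor was any of the 13747 features (0%), and by DESeq2 no member and 20 features were. At an unadjusted p under 0.05 stood 4 of the 32 (12.5%) and 571 of all features (4.15%). They were SFRP4, NKD1, DKK1 and AXIN2, at unadjusted values of 0.00987, 0.0306, 0.039 and 0.0447.

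AXIN2 was at 2.67 to 3.17 CPM in the 3 MM pools, at 1.92 to 2.07 in HM and at 1.74 to 2.55 in LM. NKD1 ran from 5.37 to 9.85 CPM in MM, from 3.84 to 5.76 in HM and from 3.62 to 6.18 in LM. DKK1 was at 1.98 to 3.62 CPM in HM, 0.693 to 1.46 in MM and 0.380 to 2.10 in LM. SFRP4 was at 7.97 to 10.2 CPM in MM, 5.03 to 9.09 in HM and 3.51 to 6.62 in LM. By mean, SFRP4, AXIN2 and NKD1 were highest in MM and DKK1 in HM, with adjusted p-values for every member that round to 1. Of these highest groups only the MM pools of AXIN2 lay apart from the other pools.

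RSPO1 was present in all 3 feed groups in late pregnancy, at 5.39 to 7.24 CPM in HM, 7.50 to 8.42 in MM and 6.58 to 7.87 in LM, and had no read in any of the 3 in lactation. For the difference between states across feed groups, no member of 29 and no feature of 13345 was called by edgeR (0%), the lowest adjusted p of a member being 0.735, while DESeq2 called no member and 19 features. AXIN2 and LRP6 were at an unadjusted p under 0.05 (0.0134 and 0.0374), as were 6.56% of all features (876).

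AXIN2 in lactation was at 0.761 and 0.949 CPM in the LM pools, at 0.176 and 0.220 in HM and at 0.113 and 0.435 in MM, from at most 7 reads each. FZD5 and WNT5A were higher in lactation in each feed group, FZD5 with 15.6 and 33.2 CPM in HM, 19.4 and 24.6 in MM and 17.5 and 21.3 in LM.

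The rest of the pathway, in lists by role put together with earlier results of these data known, is given by counts to be read against the 35.2% of features called lower and the 33.1% called higher. Of the proteins needed for Wnt secretion 2 were tested, and WLS, the carrier of Wnt ligands to the surface, was lower (17.3 to 21.9 CPM against 11.2 to 15.8 CPM, log2 -0.55 ± 0.09). Among 12 further extracellular modulators 5 were lower, 2 higher and 5 not called, led by SOSTDC1, a Wnt and BMP antagonist (21.2 to 35.3 CPM against 1.98 to 4.003 CPM, log2 -3.41 ± 0.17, adjusted p = 5.5e-13, edgeR). GPC4, a heparan sulphate proteoglycan of the cell surface, was at 10.3 to 14.2 and 0.571 to 3.26 CPM (log2 -2.32 ± 0.17), and DKKL1, a distant relative of the DKK proteins, rose (log2 1.95 ± 0.12, but 0.06 with library size alone).

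In the cytoplasm 11 of 21 tested genes were higher, 3 lower and 7 not called. DVL1, a Dishevelled protein that relays the Frizzled signal, was at 19.1 to 27.3 and 32.02 to 43.2 CPM (log2 0.72 ± 0.08), and FBXW11, a subunit of the ligase that marks beta-catenin for destruction, had a log2 change of 0.73 ± 0.08, both being at -1.18 with library size alone. CSNK1E, a kinase of Dishevelled, was the exception in size, at 5.63 to 8.80 CPM in late pregnancy and 0.703 to 2.20 CPM in lactation (log2 -2.54 ± 0.20, adjusted p = 8.9e-10, edgeR).

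Of 12 nuclear cofactors 3 were lower and 3 higher, HBP1, a repressor of Wnt targets, being at 74.2 to 99.2 against 40.2 to 62.3 CPM (log2 -0.76 ± 0.09). TLE4, a corepressor held by TCF factors, had a log2 change of 0.80 ± 0.10 (-1.11 with library size alone), and CTNNBIP1, which keeps beta-catenin from TCF factors, one of -0.69 ± 0.14. Among 15 genes of planar polarity and other Wnt receptors 3 were lower and 4 higher. PTK7, a receptor-like protein that takes part in planar polarity, was at 42.1 to 65.8 CPM and 8.91 to 12.9 CPM without overlap (log2 -2.17 ± 0.10, adjusted p = 2.4e-13, edgeR), and PRICKLE1 and FUZ had log2 changes of -1.72 ± 0.14 and -1.84 ± 0.13. The 4 that rose, named after their values were seen, were ROR1, a receptor of WNT5A (1.71 to 3.199 CPM against 5.19 to 10.5 CPM without overlap, log2 1.48 ± 0.17), PRICKLE2 (1.38 ± 0.24), DAAM2 (1.01 ± 0.15) and RYK, another Wnt receptor (0.63 ± 0.06), and all 4 were negative with library size alone.

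Genes that have been reported as beta-catenin targets were mostly lower, 10 of 17 tested against 2 higher and 5 not called, with a median log2 change of -0.96 where that of all tested features was -0.03. BIRC5, an inhibitor of apoptosis that is made in dividing cells, was at 10.5 to 18.95 CPM against 0.440 to 2.44 CPM (log2 -3.23 ± 0.24). BMP4, a growth factor, had a log2 change of -2.80 ± 0.25 and SOX4, a transcription factor of progenitor cells, one of -2.41 ± 0.25. The 2 that rose, named after their values were seen, were EPHB3, an ephrin receptor (11.8 to 16.9 CPM against 32 to 39.0 CPM without overlap, log2 1.37 ± 0.09), and WISP2, a secreted matricellular protein (log2 1.36 ± 0.23), and both were negative with library size alone. The markers of dividing cells given above moved in the same direction as the targets that were lower, and their part in those falls was not tested.

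Of the hormone-side genes that border on RSPO1, 4 were tested. ESR1, the oestrogen receptor, was at 11.3 to 19.1 CPM in late pregnancy and 120.7 to 150.2 CPM in lactation (log2 3.03 ± 0.09, adjusted p = 3.0e-16, edgeR). CITED1, a nuclear partner of oestrogen receptors, went from 2.67 to 5.03 CPM down to 0 to 0.879 CPM (log2 -3.55 ± 0.32, adjusted p = 7.4e-09, edgeR), without overlap. ELF5, the transcription factor of milk-secreting alveolar cells, had a log2 change of 0.81 ± 0.05 (-1.10 with library size alone), and TNFRSF11A, the receptor of RANK ligand, was not called. RSPO1 and CITED1 thus lay among the falls while ESR1 rose in the same libraries.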

How the data were processed

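Paired reads of 100 bases were mapped to the sheep genome by the authors with CLC Genomics Workbench, and the table used holds 24691 features. Per the file headers its counts are reads on exons and on whole genes, all or uniquely placed, not normalized. The deposited RPKM divides exon counts by exon length and by the reads on genes, and was here recomputed to within 3.48e-07 of their size, and a further set is RPKM after the authors' quantile normalization. The authors' fold changes and p-values of the Baggerly test were not used. Columns of values that matched no sample numbered 0. The labels give the genome build as Oar_v3.1, and the study's methods give another version number.

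Exon reads (whole-gene reads for the 5583 features without an annotated transcript) of the 15 libraries were fitted with edgeR 4.0.16 in R 4.3.3 (filterByExpr by state, TMM, quasi-likelihood F-test, no covariate), with Benjamini-Hochberg adjustment over 13345 features and a threshold of 0.05. Intron reads are whole-gene less exon reads. Alternatives used DESeq2 1.42.0 and limma 3.58.1 (log2 of quantile-normalized RPKM plus 1). The scripts were tested on simulated counts. Pool numbers in the labels were checked as pairs within feed groups, and the 6 correlations of deviations ran from -0.045 to 0.12, so equal pool numbers gave no sign of shared ewes and were not used as pairs in the main test. Members and lists were chosen with earlier results of these data known. Values are given for RSPO1 and, per role, up to 4 called members of largest change (mean of at least 1 CPM) and 2 of highest level, and up to 3 called genes per other list; other members, and values of single feed groups, were added after theirs were seen. One symbol is not reported here. Standard errors of edgeR changes were derived from the log2 change and its F statistic, not taken from the fit. The 95% intervals of the log2 change use them with a normal approximation. They are therefore approximate and somewhat narrow, and the calls rest on the F-test. Reads carry no molecular identifiers.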

Additional observations from a re-analysis of the deposited data

Results flagged for a closer look

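Over 57 groups (29 tested members in 2 states, less those without a read), 4 libraries stood apart from their own group by more than Dixon's 95% limit for the gap over the range, where chance alone marks about 1 in 20. WIF1 was at 9.55 CPM in late pregnancy replicate 4, where the next library was at 4.21, a gap of 0.675 of the range against a limit of 0.493 for 9 libraries. FZD4 was lowest in the same library, at 4.88 CPM with the next at 6.64. AXIN1 was at 12.2 CPM in late pregnancy replicate 5, with the next at 14.4. TCF7L2 was at 20.7 CPM in lactation replicate 1, with the next at 15.6, a gap of 0.711 against a limit of 0.625 for 6 libraries. That lactation library also had the lowest share of milk protein reads in its state, 71.3%. Leaving out the library in question, the 4 genes kept their direction and their call.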

How the results depend on the processing

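For the 29 tested members, 416 of 435 results with a library left out and 330 of 364 results under other settings kept direction and call, and 10 of the latter turned. With a library left out, 15 to 17 members were lower, 6 to 7 higher and 12 to 14 called on introns, and none was called for feed or its interaction in any such fit. Scaling by library size alone, which moved the median of all features to -1.94, gave 27 lower and 2 higher, and turned CTNNB1 (-1.68), DKK3 (-1.75), FZD4 (-0.73), LGR4 (-1.72), LRP5 (-1.81), LRP6 (-1.60), ZNRF3 (-0.74), DVL1 (-1.18), FBXW11 (-1.18), TLE4 (-1.11), ELF5 (-1.10), ROR1 (-0.42), DAAM2 (-0.90), RYK (-1.28), PRICKLE2 (-0.52), EPHB3 (-0.53) and WISP2 (-0.54). Upper quartile scaling (median -0.18) gave 19 lower and 4 higher and put LRP5 at -0.05. At least 10 reads in every library left 10079 features, with 7 members lower and 4 higher. Members with few reads in either state were then not tested, WNT5A among them, and LGR4 (0.11, adjusted p = 0.214) and LRP6 (0.22, adjusted p = 0.0973, edgeR) were tested and lost the call. On quantile-normalized RPKM, CTNNB1 was at -0.05 and LRP5 at -0.0031. LGR4 ran from 0.13 to 0.25 and SFRP4 from -1.06 to -0.56 with a library left out, and WNT2, SFRP1 and RNF43 each gained a call without 1 library (lactation replicates 4 and 5 and late pregnancy replicate 2, adjusted p = 0.0205, 0.0383 and 0.0344, edgeR). The replicate block of feed group and pool number, over 12 libraries, gave 15 lower and 6 higher, and WNT6 (adjusted p = 0.0526) and LRP6 (0.0544) lost the call. Without the block, a fit added after seeing the data, the same 12 libraries lost SFRP4 (0.0731) and LRP6 (0.0533). Shares of all features called under these other settings are not given, and those of the main fit do not apply to these counts. Of the 6 paired libraries, 2 correlated best with their own number. Lactation depth limits genes under about 0.659 CPM, the level of 3 reads in its shallowest library.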
